A study of Arabidopsis thaliana with 8 samples.

Results

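The regions described here are H2B-GFP peaks in the outer 500 kb of the 5 nuclear chromosomes of Arabidopsis thaliana. A member is a unique interval of an H2B-GFP peak list whose midpoint lies within 500 kb of a chromosome tip, and lines of a list with the same interval were joined. Of 1361 nuclear intervals in replicate 1, 123 were members, and of 8608 in replicate 2, 650 were, which gives 773 of 9969 in all. They came from chromatin immunoprecipitation and sequencing of whole seedlings 7 days after germination, in which GFP fusions were captured on GFP-Trap agarose. The H2B line was Col-0/p35S::AtH2B-GFP, in which the viral 35S promoter, active in most tissues, drives a tagged copy of the histone on top of the plant's own H2B genes. The other line was gbpl3-5/pAtGBPL3::AtGBPL3genomic-GFP (comp2), a mutant for the guanylate-binding GTPase GBPL3 that carries a tagged genomic copy under its own promoter. Each line has a pulldown and an input with 2 replicates, and the 4 pulldown peak lists were used. The labels do not say whether replicates came from separate batches of plants, so differences between them may be technical. In whole seedlings, more cells with a mark and more of it per cell cannot be told apart.

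H2B pairs with H2A in the histone octamer around which nuclear DNA is wound, and it is found along all chromatin. A plant chromosome ends in a telomere, an array of short repeats held by binding proteins and kept by telomerase, and the sequence next to it in Arabidopsis is rich in genes rather than in long blocks of repeats. The starts of chromosomes 2 and 4 differ, since they carry the arrays of ribosomal RNA (rRNA) genes from which the nucleolus forms. A reference assembly holds at most a few copies of such an array.

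The peaks were weak in both lists. The authors' fold enrichment, a ratio of a peak's summit over its local background, had a median of 1.87 among the members of replicate 1 and 1.76 among those of replicate 2, and the highest were 2.91 and 2.80. In the inner arms, taken as all nuclear sequence beyond the outer 500 kb and over 3 Mb from an approximate centromere midpoint, the medians were 1.88 and 1.75. The authors' −log10 q, their measure of confidence in a peak, had medians of 2.38 and 2.80 among members and 2.16 and 2.60 in the inner arms. Depth is unknown for these libraries, and the number of peaks in a list can move with it. Fold and −log10 q belong to a peak within its own list.

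Peaks lay closer together at the chromosome ends than in the inner arms, in both replicates. Replicate 1 had 24.6 peaks per Mb over the 5 Mb of end windows and 13.4 per Mb in the inner arms, a ratio of 1.84. Replicate 2 had 130.0 and 87.5 per Mb, a ratio of 1.49. The mean ratio was 1.66 ± 0.247 (SD, n = 2). Protein-coding genes were only slightly denser there, with 297 per Mb at the ends and 271 per Mb in the inner arms. Per 100 protein-coding genes, replicate 1 had 8.28 peaks at the ends and 4.95 in the inner arms, and replicate 2 had 43.7 and 32.3. Peaks covered 1.12% of the end windows and 0.559% of the inner arms in replicate 1, and 7.42% and 4.61% in replicate 2. With replicate 2 shortened to the length of replicate 1 by −log10 q, its ratio of densities was 1.92. These ratios are descriptions of 2 libraries and carry no test.

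Every one of the 10 ends held more peaks than the median inner-arm window of the same size, in each replicate. The 161 inner-arm windows of 500 kb held a median of 6 peaks (lowest 1, highest 16) in replicate 1 and 43 (lowest 17, highest 79) in replicate 2. The 10 ends held 8 to 17 with a median of 13 in replicate 1, and 49 to 91 with a median of 65.5 in replicate 2. Ends and inner windows overlapped widely: a single end stood above every inner window in each replicate, the start of chromosome 5 in replicate 1 and the far end of chromosome 3 in replicate 2.

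**Figure D1:**
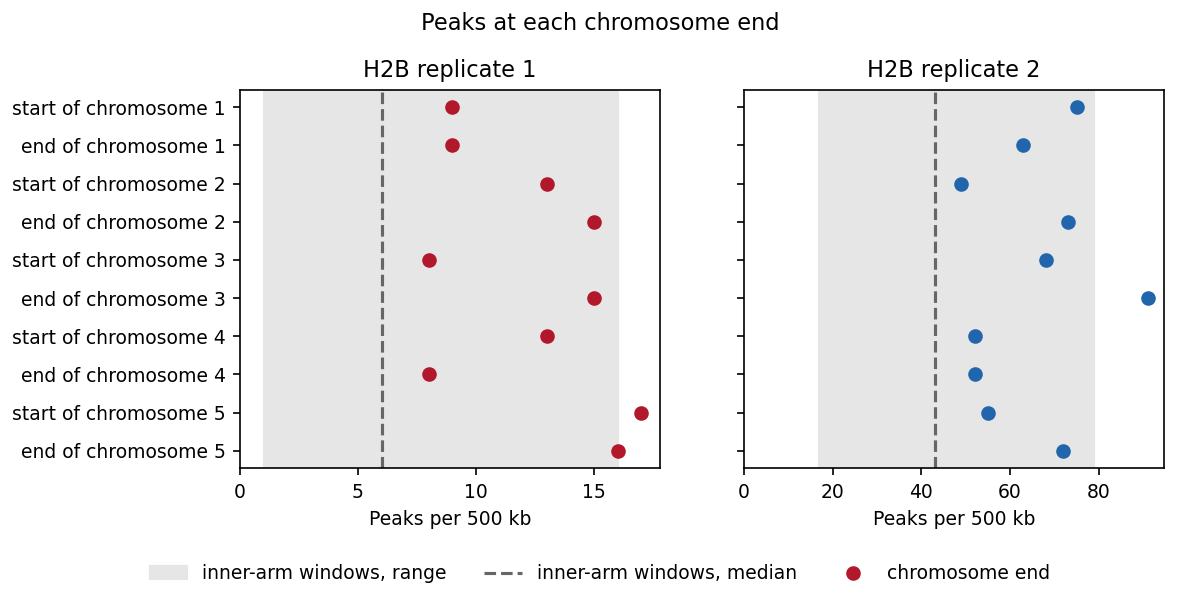
H2B-GFP peaks per 500 kb at each of the 10 chromosome ends (points), with the range (grey) and median (dashed line) of the 161 inner-arm windows of 500 kb, for each replicate. All 10 points lie to the right of the dashed line in both panels, and 1 in each panel lies beyond the grey range.

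The order of the ends differed between the replicates. In replicate 1 the start of chromosome 5 led with 17 peaks, followed by its far end with 16 and the far ends of chromosomes 2 and 3 with 15 each. The starts of chromosomes 2 and 4 had 13 each, both tips of chromosome 1 had 9, and the start of chromosome 3 and far end of chromosome 4 had 8. In replicate 2 the far end of chromosome 3 led with 91 peaks, then the start of chromosome 1 with 75, the far end of chromosome 2 with 73 and the far end of chromosome 5 with 72. The start of chromosome 3 had 68, the far end of chromosome 1 had 63 and the start of chromosome 5 had 55, while both tips of chromosome 4 had 52. The start of chromosome 2 was last with 49. Over the 10 ends the counts of the replicates had a Spearman correlation of 0.203 and a Pearson correlation of 0.160. These are descriptions over ends that share their libraries.

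Both ends with rRNA arrays together held 26 peaks for 261 protein-coding genes in replicate 1, or 9.96 per 100 genes, against 7.92 over the other 8 ends. In replicate 2 the direction was the opposite, with 38.7 per 100 genes at these ends and 44.8 at the others. The array ends were therefore not set apart by their number of peaks in a way both replicates shared. Of the 26 peaks in replicate 1, 4 lay in and beside the rRNA genes in the outer 50 kb at the start of chromosome 2. Replicate 2 had 1 peak there. The start of chromosome 2 was also the end with the fewest protein-coding genes, 116, where the other ends had 143 to 170.

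**Figure D2:**
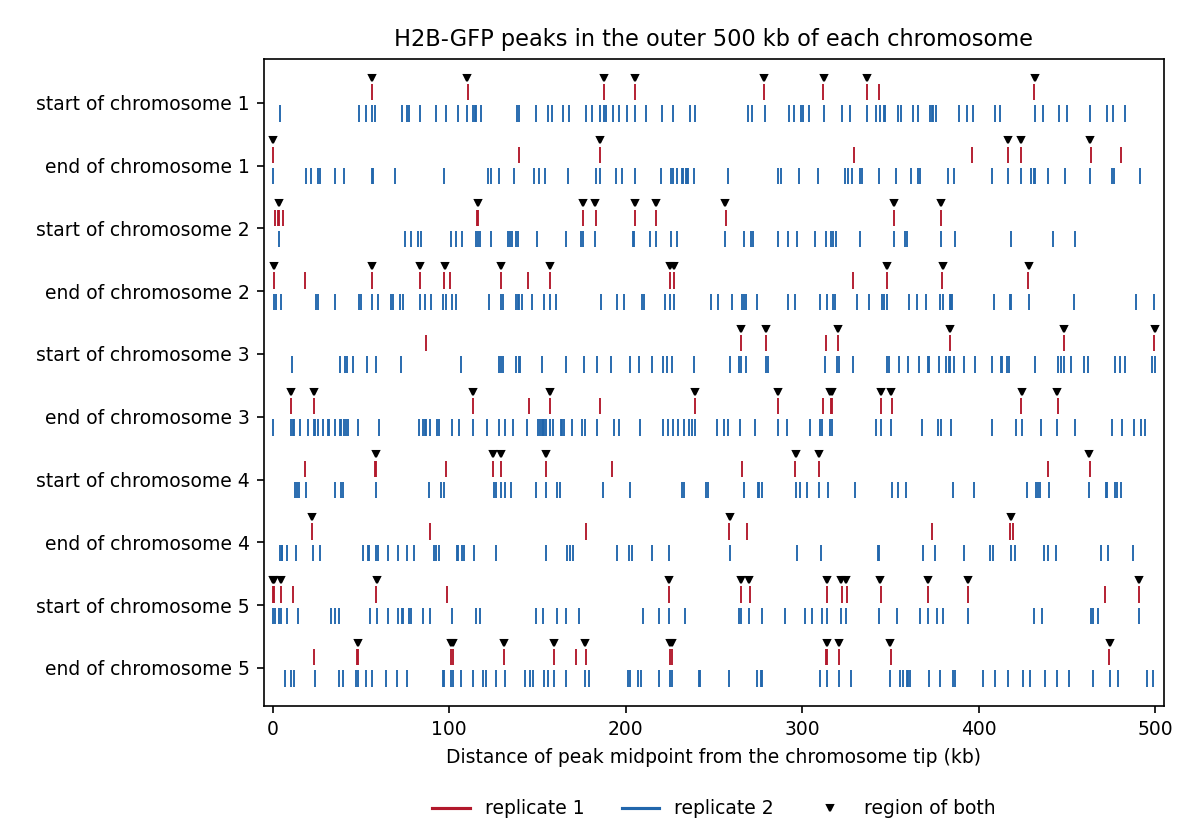
Position of every member along the 10 chromosome ends, as the distance of its midpoint from the tip in kb. Red and blue strokes are peaks of replicates 1 and 2, and black triangles mark the 87 regions found in both. The start of chromosome 2 shows red strokes crowded in the outer 10 kb and then no peak of either replicate until beyond 75 kb.

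The longest stretches without peaks lay at different ends in the replicates. In replicate 2, the denser list, no member midpoint lay between 3.53 and 75.1 kb from the start of chromosome 2, a stretch of 71.5 kb, and at the start of chromosome 1 none lay between 3.95 and 48.7 kb. At the other 8 ends the longest such stretch was 25.1 to 38.02 kb. In replicate 1 the longest stretch at an end was 87.98 to 179 kb, and the longest of all was at the start of chromosome 3, between 86.7 and 265 kb from the tip.

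Peak density was lower farther from the tip, both within the end windows and beyond them. In bins of 500 kb, replicate 1 had 24.6 peaks per Mb in the outermost bin, 17.8 in the next, 15.8 between 1000 and 1500 kb and 13.8 between 1500 and 2000 kb. Replicate 2 had 130.0, 107.8, 99.0 and 89.0 per Mb in the same bins. Between 2000 and 5000 kb the values were 8.80 to 16.2 in replicate 1 and 77.2 to 94.6 in replicate 2. Per 100 protein-coding genes, the outermost bin was again the highest of the 10 in both replicates, with 8.28 and 43.7, and the others ranged from 3.71 to 6.43 and from 31.8 to 38.1. On chromosomes 2 and 4 the centromere lies close to the start, so the farther bins there include its surroundings, and the part of this in the fall was not tested.

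**Figure D3:**
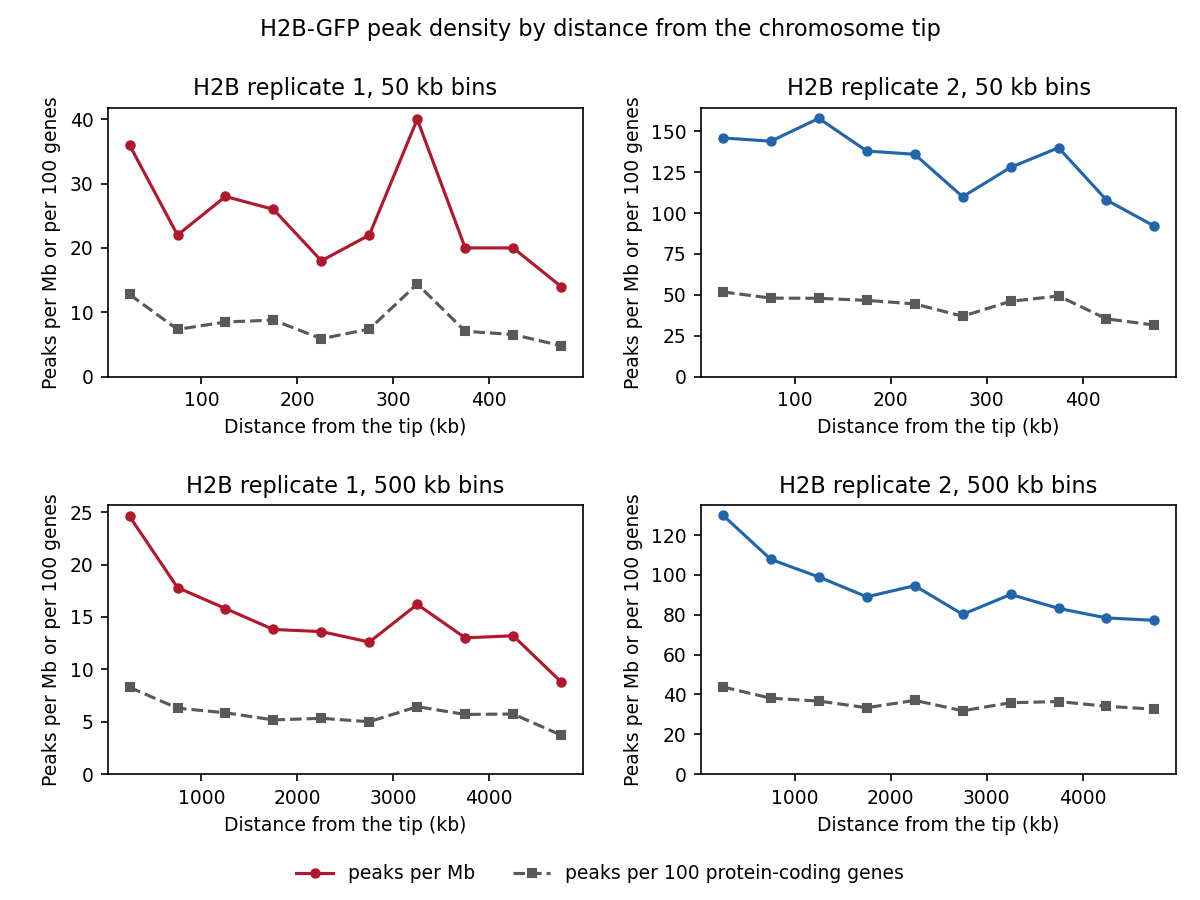
H2B-GFP peaks by distance from the tip over all 10 ends, in bins of 50 kb (upper panels, outer 500 kb) and 500 kb (lower panels, outer 5000 kb). Solid lines give peaks per Mb and dashed grey lines peaks per 100 protein-coding genes. The outermost 500 kb bin is the highest in both replicates on both scales.

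Within the outer 500 kb the innermost 50 kb had the lowest density in both replicates, with an uneven course before it. Replicate 1 had 36 peaks per Mb in the outermost 50 kb and 14 in the innermost, from 18 and 7 peaks, with 40 per Mb between 300 and 350 kb. Replicate 2 had 146 per Mb in the outermost 50 kb, a highest value of 158 between 100 and 150 kb, and 92 in the innermost. Set against the remaining 450 kb, the outermost 50 kb had 1.54 times the density in replicate 1 and 1.14 times in replicate 2. In replicate 1, 8 of its 18 outermost peaks lay at the starts of chromosomes 2 and 5. Without the outer 20 kb at the starts of chromosomes 2 and 4, the ratios were 1.21 and 1.15.

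A few members lay at the very tips of the assembled chromosomes. Within 1 kb of a tip there were 4 peaks in replicate 1 and 5 in replicate 2, at 3 and 4 of the ends. At the start of chromosome 5 a peak of replicate 1 (117 to 369 in TAIR10 coordinates) had a fold of 2.75 and ranked 9 of 1361 in its list, and its partner in replicate 2 (112 to 407) had 2.40 and ranked 130 of 8608. Both had their summits in AT5G00730, a long non-coding RNA gene that is the first gene of the chromosome in the table. A second pair followed directly beside the protein-coding gene AT5G01010, with a fold of 1.83 in replicate 1 (527 to 979) and 2.25 in replicate 2 (570 to 1372).

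At the far end of chromosome 2, a peak beyond the last gene, AT2G48160, had a fold of 2.91 in replicate 1 (19697485 to 19697774), the highest of all members of that list and rank 5 of 1361. The replicate 2 peak there (19697087 to 19697754) had 2.22 and ranked 353. At the far end of chromosome 1 the pair lay in the pseudogene AT1G81020, with folds of 1.95 (30427234 to 30427483) and 1.66 (30427143 to 30427502), and ranks of 484 of 1361 and 5973 of 8608. At the far end of chromosome 3 the outermost peak was in replicate 2 alone, in AT3G63540 (23459324 to 23459634), with a fold of 1.57. So the chromosome 5 and chromosome 2 tips held strong peaks in both replicates, while those at chromosomes 1 and 3 ranked lower in their lists. The nearest members at the other tips lay 1.38 to 86.7 kb inside in replicate 1 and 3.53 to 12.7 kb inside in replicate 2.

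The members in and beside the rRNA genes at the start of chromosome 2 had low folds, and 3 of the 4 in replicate 1 had a high −log10 q. AT2G01010 and AT2G01020 are the rRNA genes of the table there, next to the protein-coding locus AT2G01008. Replicate 1 had 4 peaks at these loci, of which 1 had its summit in an rRNA gene. In AT2G01008 a peak (1246 to 1514) had a fold of 1.71 and a −log10 q of 19.8, and another (2504 to 2923) had 1.43 and 8.33. Beside AT2G01010 a peak (3320 to 3707) had a fold of 1.55 with a −log10 q of 14.6, and the peak in AT2G01020 (5520 to 5915) had 1.23 and 2.12. Replicate 2 had 1 peak, beside AT2G01010 (3358 to 3702), with a fold of 1.29 and a −log10 q of 4.72. By fold these stood low in their lists, ranking 1190 to 1357 of 1361 in replicate 1 and last of 8608 in replicate 2. By −log10 q, 3 of the 4 ranked 10, 11 and 23 in replicate 1, and the replicate 2 peak ranked 986. The rRNA genes are repeated in the genome, and the part of read placement in these values was not tested.

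**Figure D4:**
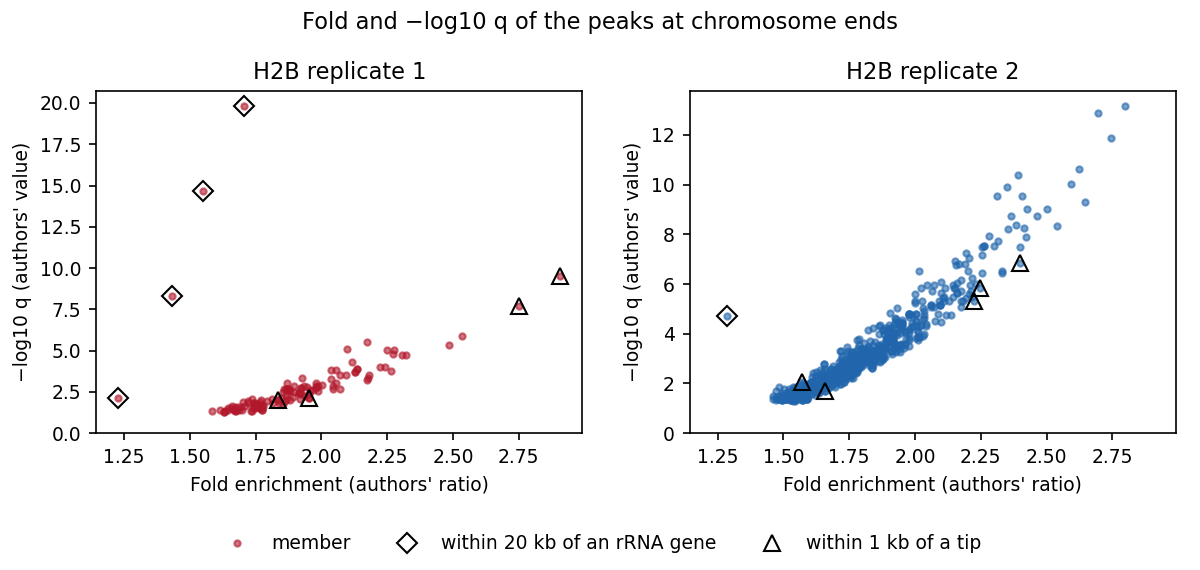
Fold enrichment (horizontal axis) and −log10 q (vertical axis) of every member in each replicate. Diamonds mark peaks within 20 kb of an rRNA gene, which lie at the start of chromosome 2, and open triangles mark peaks within 1 kb of a tip. The diamonds lie at low folds, off the band formed by the other members. In replicate 1 the peak in AT2G01020 (−log10 q of 2.12) does not stand above most members, and the other diamonds do.

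Members in or beside rRNA genes could not be counted at the start of chromosome 4, where the gene table lists no rRNA gene. The placement of reads from the array there was not tested. No member lay in the outer 12 kb of this end in either replicate. The outermost was a replicate 2 peak (12407 to 12951) in SD3, named for segregation distortion, with a fold of 1.68. In replicate 1 it was a peak (18119 to 18399) in UNE10, a helix-loop-helix factor gene, with a fold of 1.85. The members with the highest folds lay farther in, over HAM3 at 58.3 kb in replicate 2 (fold 2.70) and in intergenic space at 192 kb in replicate 1 (192105 to 192395, fold 2.26).

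GBPL3-GFP had peaks at 1 of the 10 ends, the start of chromosome 2, with 5 of its 87 nuclear peaks in replicate 1 and 6 of 81 in replicate 2. All lay within 11 kb of the tip, from 1122 to 10362 in replicate 1 and from 1191 to 10354 in replicate 2. Their folds were 8.02 to 12.6 and 4.80 to 7.42, and those of the H2B peaks of the same place were 1.23 to 1.71. A fold belongs to a peak within its own list, so these values do not compare the amounts of the 2 fusions. All 5 H2B members there overlapped a GBPL3 peak by at least 1 bp, and no other member did. The GBPL3 peak at AT2G00340, an RNA gene farther along (9619 to 10362 in replicate 1), had no H2B peak in either replicate. The share of a list that lay at the ends was 9.04% (Wilson 95% interval 7.63 to 10.7) and 7.55% (7.01 to 8.13) for H2B replicates 1 and 2. It was 5.75% (2.48 to 12.8) and 7.41% (3.44 to 15.2) for GBPL3. The intervals cover counting error only. The mean difference was 1.72 percentage points (2-sided exact permutation test over libraries, p = 0.333, the smallest that 2 libraries against 2 allow), and in replicate 2 alone it was 0.144. Without the outer 20 kb at the starts of chromosomes 2 and 4, the mean share was 8.10% for H2B and GBPL3 had no peak at any end, with the same p.

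Of the replicate 1 members, 91 of 123 (74.0%, 65.6 to 80.9) overlapped a replicate 2 peak, where 62.3% of all nuclear replicate 1 peaks and 61.9% (59.0 to 64.7) of those in the inner arms did. Of the replicate 2 members, 87 of 650 (13.4%, 11.0 to 16.2) overlapped a replicate 1 peak, where 9.61% of all nuclear peaks and 9.26% (8.62 to 9.94) of those in the inner arms did. Replicate 2 peaks covered more of the sequence at the ends, which moves with these shares, and its part in them was not tested. The overlaps formed 87 regions with a median width of 979 bp, against 805.5 bp for the 728 regions elsewhere. The count depends on the rule: it was 34 with a reciprocal overlap of 50%, 52 with a −log10 q of at least 2, and 48 with replicate 2 cut to the length of replicate 1. They numbered 14 at the start of chromosome 5, 12 at the far ends of chromosomes 3 and 5, 11 at the far end of chromosome 2, 9, 8, 7 and 6 at the starts of chromosomes 2, 1, 4 and 3, and 5 and 3 at the far ends of chromosomes 1 and 4. Replicate 1 gave the higher fold in 39 of these regions and in 369 of the 728 elsewhere. Folds of the 2 replicates had a Spearman correlation of 0.278 over these regions and 0.160 over the others.

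The strongest of these regions by mean fold were the tips already described, at the start of chromosome 5 (mean fold 2.58) and the far end of chromosome 2 (2.57). The third lay in AT5G67020 (chromosome 5, 26749951 to 26751129), where replicate 1 had a fold of 1.98 and replicate 2 one of 2.75. Next came a region beside NAC003 on chromosome 1 (431200 to 432145), a gene of the NAC transcription factor family, with 2.49 and 2.18. AT5G01960 on chromosome 5 (370636 to 371591) had 2.28 and 2.38. The pseudogene AT3G62475 on chromosome 3 (23108906 to 23109853) had 2.22 and 2.41. These first 6 lay at 5 different ends, and 2 of them had their summits in protein-coding genes.

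The other regions among the 10 strongest lay in protein-coding genes. ATG18a (listed as AtATG18a), which takes part in forming autophagosomes, had folds of 2.13 and 2.50 (chromosome 3, 23220046 to 23221103). HAM3, a GRAS-family regulator of shoot meristems, had 1.86 and 2.70 under a region of 1721 bp (chromosome 4, 57444 to 59164). AT5G67200 on chromosome 5 (26815328 to 26816637) had 2.07 and 2.46. AT5G01830 on chromosome 5 (321001 to 323432) had 2.17 and 2.31, and its region of 2432 bp was the widest of the 87. Of all 87, 6 reached a −log10 q of 5 in each list: the tips of chromosomes 5 and 2, NAC003, AT5G01960, AT5G01830 and PLP9, a patatin-like protein gene (chromosome 3, 23345834 to 23347381, folds of 2.095 and 2.35). Elsewhere, 37 of the 728 regions reached it.

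The remaining 77 regions had folds of up to 2.53 in replicate 1 and 2.39 in replicate 2. By summit, 72 of all 87 (82.8%) lay in protein-coding genes, where 80.6% of the 728 regions elsewhere did. Of the rest at the ends, 8 lay within 1 kb of a gene, 4 in intergenic space, 2 in pseudogenes and 1 in a non-coding RNA gene. The 72 lay in 70 different genes. Regulators of growth were present among them at ordinary folds. BRI1, the receptor of brassinosteroid hormones (chromosome 4, 18325151 to 18326833), had 1.72 and 2.00. RGA, a DELLA repressor of gibberellin responses listed as RGA1 (chromosome 2, 256008 to 257010), had 1.67 and 2.06. PIN4, an auxin efflux carrier (chromosome 2, 181991 to 183392), had 1.87 and 2.11. These 3 genes were picked for their known roles after their values were seen, and they say nothing about hormone genes as a group.

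The peaks with the highest fold at each end were mostly different between replicates, apart from the start of chromosome 5. In replicate 1 they were the tips of chromosomes 5 and 2, NAC003, a region beside AT3G62490 (chromosome 3, 23115016 to 23115661, fold 2.53), and members with folds of 1.91 to 2.32 at the other 6 ends. The last group included ARA12, a subtilisin-like protease gene (chromosome 5, 26873934 to 26874612, fold 2.32), and NADP-ME4, a malic enzyme gene (chromosome 1, 30010982 to 30011434, fold 1.98). It also included FBA2, a plastid fructose-bisphosphate aldolase of the Calvin cycle (chromosome 4, 18165445 to 18165765, fold 1.91, no overlap in replicate 2).

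In replicate 2 the highest fold among all members was 2.80, in AT1G01300 on chromosome 1 (117119 to 118504), with no overlapping peak in replicate 1. AT5G67020 followed with 2.75 and HAM3 with 2.70. RPK2, a receptor-like kinase that acts in meristem and anther development, had 2.62 (chromosome 3, 380725 to 382273). GA3OX2, an enzyme of the last step to active gibberellins, had 2.54 (chromosome 1, 30201668 to 30202276), and neither had an overlap with that peak in replicate 1. ATG18a led its end with 2.50. The other ends were led by AT2G47150 with 2.41 (chromosome 2, 19352411 to 19353353), the tip of chromosome 5 with 2.40, AT4G39955 with 2.23 (chromosome 4, 18530516 to 18530886) and AT2G01080 with 2.22 (chromosome 2, 77970 to 78797). Ranked by −log10 q in place of fold, the start of chromosome 5 was led by CIPK14, a kinase regulated by calcium sensors and listed as SR1 (313518 to 314926, −log10 q of 10.4), and the far end of chromosome 3 by PLP9 (−log10 q of 9.90).

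Members lay inside genes about as often as other arm peaks. Summits fell in a protein-coding gene for 106 of 123 members in replicate 1 (86.2%, 79.0 to 91.2) and 614 of 650 in replicate 2 (94.5%, 92.4 to 96.0). The inner arms had 86.3% (84.2 to 88.2) and 93.7% (93.2 to 94.3). Intergenic summits numbered 5 (4.07%) and 8 (1.23%), against 2.04% and 0.978% in the inner arms. Pseudogenes held 2 (1.63%) and 6 (0.923%), against 3.28% and 1.26%. Non-coding RNA genes held 2 (1.63%) and 3 (0.462%), against 0.532% and 0.652%. The space within 1 kb of a gene held 8 (6.50%) and 19 (2.92%), against 7.80% and 3.38%. The gene table has neither strand nor exons, so exons, introns and untranslated parts were not told apart. Members were slightly broader than inner-arm peaks: 4.07% (1.75 to 9.16) and 11.1% (8.89 to 13.7) were at least 1 kb wide, against 1.95% (1.29 to 2.94) and 7.24% (6.67 to 7.85). A −log10 q of at least 5 was reached by 8.94% (5.07 to 15.3) and 13.1% (10.7 to 15.9) of members and by 4.61% (3.53 to 5.995) and 9.57% (8.92 to 10.3) of inner-arm peaks. Among peaks within 3 Mb of a centromere midpoint the shares were 16.4% and 9.61%. The members counted in replicate 1 include the peaks beside the rRNA genes with 19.8, 14.6 and 8.33. The intervals of the members and the inner arms overlapped for both measures in replicate 1 and for neither in replicate 2. These intervals cover counting error within a list only and treat its peaks as independent, so they do not test a difference.

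A larger share of genes had a peak at the ends. Of the 1486 protein-coding genes of the end windows, 104 (7.00%, 5.81 to 8.41) were overlapped by a replicate 1 peak and 533 (35.9%, 33.5 to 38.3) by a replicate 2 peak. Over all 27444 nuclear protein-coding genes these shares were 4.07% and 25.2%, and in the inner arms 4.21% (3.96 to 4.48) and 26.1% (25.6 to 26.7). In both replicates 88 of the 1486 genes were hit (5.92%), against 3.20% in the inner arms. Longer genes were hit more often in both places, and the rule of at least 1 bp of overlap by itself favours longer bodies. In replicate 2, 18.1% of end genes under 1 kb and 52.3% of those of 4 kb or more had a peak, against 11.1% and 35.04% in the inner arms. In replicate 1 the same classes had 1.39% (3 of 216 genes) and 14.6% at the ends and 1.28% and 7.43% in the inner arms. The share was higher at the ends in each of the 4 length classes in both replicates, by little in replicate 1 for genes under 1 kb.

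**Figure D5:**
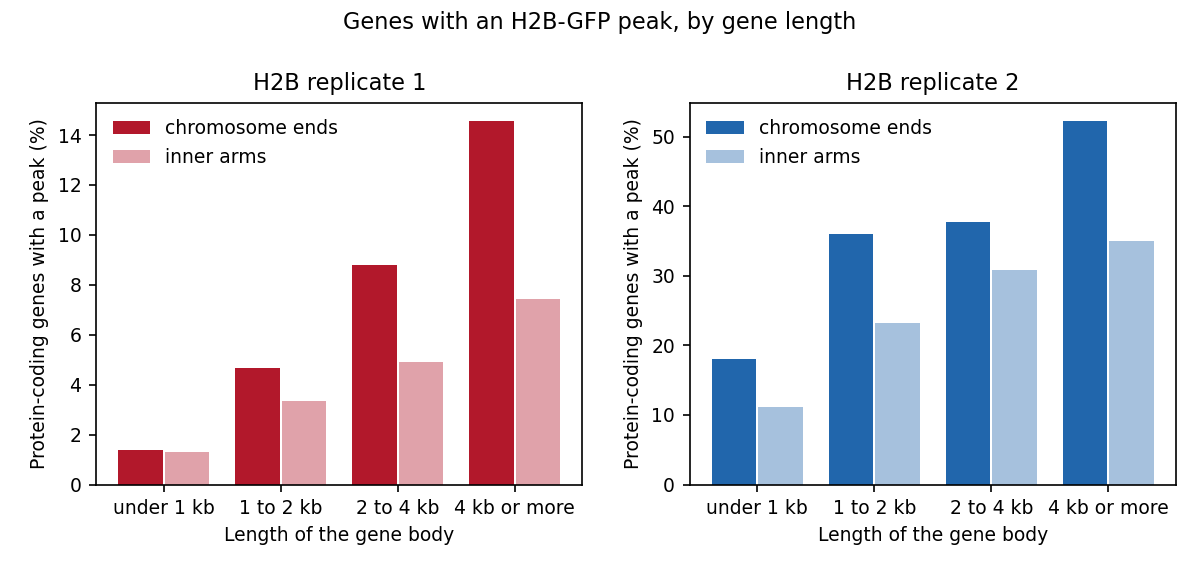
Share of protein-coding genes overlapped by an H2B-GFP peak (vertical axis, percent, from 0) by the length of the gene body, at the chromosome ends (dark bars) and in the inner arms (light bars). The share rises with gene length in both places, and each dark bar is higher than its light neighbour, by the least for genes under 1 kb in replicate 1 (1.39% and 1.28%).

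The genes next to the tips were hit about as often as other end genes. Of the 50 protein-coding genes nearest the tips, 5 for each end, 4 (8.00%) had a replicate 1 peak and 18 (36.0%) a replicate 2 peak. Those hit in both were TTA2 at the far end of chromosome 3, with folds of 1.92 and 2.28, and AT5G01010 at the start of chromosome 5. The highest folds over AT5G01010 came from different peaks, 1.77 in replicate 1 (4290 to 4580) and 2.25 in replicate 2 (570 to 1372), and the replicate 2 peak that overlapped the former (4038 to 5793) had 1.72. The first genes of chromosome 1 gave a peak in replicate 2 over NAC001 (fold 1.98), and no peak in either replicate over ARV1, NGA3, DCL1, the Dicer-like enzyme of microRNA processing, or PPa1. All 5 genes nearest the far end of chromosome 1 lacked a peak in both lists, although the pseudogene outside them had one. At the far end of chromosome 4, AT4G40080 had 2.18 and AGP3, an arabinogalactan protein gene, had 1.59 in replicate 2. BRCA2(IV), a recombination gene near the start of chromosome 4, had no peak.

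Genes that maintain telomeres were looked up wherever they lie, by 21 names of which 20 matched the table. None of the 20 had a peak in replicate 1, where 4.07% of all protein-coding genes had one, and 6 (30.0%) had one in replicate 2, where 25.2% did. These were STN1 with a fold of 2.43 and CTC1 with 1.86, partners in a complex that protects chromosome ends, and TEN1 (listed as MDO1) with 1.64. TRB1 and TBP1, which bind telomeric repeats, had 1.60 and 1.87, and CBF5, the dyskerin of telomerase and small nucleolar particles, had 1.77. TERT, the catalytic part of telomerase, had no peak in either list. Only TRB2 lies in the end windows, on chromosome 5, and it had no peak.

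The limit of 500 kb fell in no gap of the lists. The innermost member of replicate 1 lay 499.6 kb from the start of chromosome 3, in AT3G02430, with a fold of 1.89, and the nearest peak outside lay at 505.6 kb in AT4G38710 with 1.91. In replicate 2 the innermost member lay in the same AT3G02430 at 499.7 kb with 1.98, and the nearest peak outside lay at 501.3 kb from the far end of chromosome 4, in ROC1, with 1.71.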

How the data were processed

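The tools named per the submitters' processing notes are MACS2 2.1.0 and BWA 0.7.12, with the build TAIR10; their options and the control are not stated in the labels. A deposited list belongs to 1 sample. The authors' values are a fold (ratio) over the local background, the −log10 p and −log10 q, and a score equal to the integer part of 10 × −log10 q, per the deposited values; the summit offset of the deposited lists placed summits. Coordinates are counted from 1.

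Lines with the same interval were joined, keeping the highest fold and −log10 q. Genes came from a RefSeq table of TAIR10.1 (37899 nuclear genes), from which no coordinates are given; all genes and peaks lay within the TAIR10 chromosome lengths, and by chromosome, 91.2 to 93.6% of replicate 2 summits fell inside protein-coding genes. A gene is named where it holds the summit, or is nearest within 1 kb. A gene was hit where its body overlapped a peak by at least 1 bp. Regions of both replicates are runs of overlapping peaks.

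Named for each end and replicate were members nearest the tip, highest in −log10 q and highest in fold; the 10 strongest shared regions; members within 20 kb of rRNA genes; and GBPL3 peaks. A planned search of promoters for telomeric motifs was not made, since no sequences were used here. Members and lists were chosen with earlier results of these data known. The code was tested on simulated peaks. Python 3.11.15, pandas 2.3.3 and scipy 1.17.1 were used.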

Additional observations from a re-analysis of the deposited data

How the results depend on the processing

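The density ratio of ends to inner arms (1.66) kept its direction and stayed within 1 SD of the replicates under each of the 10 alternatives run: windows of 250 kb (1.77) and 1000 kb (1.4995), a −log10 q of at least 2 (1.72), replicate 2 cut to the length of replicate 1 (1.88), summits in place of midpoints (1.66), lines not joined (1.72), no outer 20 kb at the starts of chromosomes 2 and 4 (1.63), counting per protein-coding gene (1.51), and either replicate alone (1.49 to 1.84). Either replicate alone lies within 1 SD of the mean of 2 by construction, so those alternatives could not fall outside it. The mean share of H2B peaks at the ends (8.29%) moved by construction to 4.48% with 250 kb and 14.7% with 1000 kb. The density of the outermost 50 kb over the rest (1.34) was 2.01 for an outermost 25 kb, 2.84 in replicate 1 and 1.18 in replicate 2, and 1.19 for 100 kb; the cause was not tested. The 87 shared regions were 34 with a reciprocal overlap of 50%, 52 with a −log10 q of at least 2 and 48 with replicate 2 cut to the length of replicate 1, each a stricter rule by construction. The difference between the fusions (1.72 points) was the same with the replicate number as a block, where the exact permutation p was 0.5, the smallest that 2 pairs allow. Depth is unknown, and it limits the count of peaks at each end.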

Other observations

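The widest members lay over genes at some distance from the tips. In replicate 1 the peak over AT5G01830 (chromosome 5, 321488 to 323432) was 1945 bp wide with 4 summits, and in replicate 2 its partner (321001 to 323178) was 2178 bp wide with 3. DRH1, a DEAD-box RNA helicase gene, had a replicate 2 peak of 2132 bp with 6 summits and a fold of 2.099 (chromosome 3, 214044 to 216175). ABCC4, an ABC transporter gene, had one of 1988 bp with 3 summits and a fold of 2.06 (chromosome 2, 19574931 to 19576918). Neither of these had an overlapping peak in replicate 1.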
